A study of Homo sapiens with 20 samples.

Results

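The mRNAs of 10 enzymes of glycolysis were followed in exosomes and in RNA granules of the cytoplasm. Both were prepared from HEK293, an established line derived from human embryonic kidney. The enzymes were GPI, PFKL, ALDOA, TPI1, GAPDH, PGK1, PGAM1, ENO1, PKM and LDHA, and they were 10 of 62266 named genes in the deposited tables. They were taken by gene symbol, as gene sums and as their 146 single transcripts. The genes were chosen by measured values, namely their lower gene sums and shifted transcript shares in control granules than in control exosomes. That comparison is therefore given as a description with no test. All 10 had values in every comparison after the filter on low counts.

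The 4 groups were exosomes and RNA granules (labelled SG in the sample names) of control cells, and exosomes and RNA granules of HD-induced cells, where HD is Huntington's disease. Each group held 5 libraries of total RNA, described by the submitters as biological replicates, all from the single line HEK293. How the disease state was induced was not given in the sources used here, and neither was the treatment of the control cells. The granule RNA came from granule cores.

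Glycolysis splits glucose into pyruvate in the cytosol and yields ATP and NADH. GPI and PFKL act on the hexose phosphates, ALDOA and TPI1 make and interconvert the triose phosphates, GAPDH to ENO1 carry these to phosphoenolpyruvate, PKM makes pyruvate, and LDHA turns pyruvate into lactate. Proliferating cell lines express these enzymes at high levels, and several of their mRNAs are commonly used as reference transcripts.

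Libraries differed in depth and 3 stood apart. The total over named and unnamed entries ranged from about 8990630 to 15610200 reads in control exosomes and from 17393600 to 38355200 reads in the granule libraries. HD exosomes 1, 2, 3 and 5 held about 12069500, 14445200, 1975860 and 4246090 reads. HD exosome 4 had 1074 reads, of which 8 fell on the 10 genes, so it is left out of levels and shares but not out of the test of all libraries. In HD exosome 2, 86.6% of the reads lay on entries with no gene name, against 24.9% to 59.2% in the other 19 libraries. HD granule 3 went against its label: across 11097 protein-coding genes its log2 levels correlated at 0.88 with the mean of the control exosomes and at 0.82 with the mean of the control granules. In the other 4 HD granule libraries these values were 0.69 to 0.80 and 0.95 to 0.99. HD exosome 5 was also close to both means, at 0.85 and 0.84, and HD exosome 2 was at 0.89 and 0.85. HD exosomes 1 and 3 were at 0.99 and 0.77 and at 0.91 and 0.73. Most results that rest on HD exosomes 2 and 4 and HD granule 3 are given with and without them. HD exosome 5 stays in those reduced sets. HD granule 3 was picked out by its likeness to exosomes, over genes that include the 10, so sets without it favour a larger contrast.

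Sequences from 2 of the genes are shown first, because the results on single transcripts turn on them. PKM mRNAs hold 1 of a pair of alternative exons, which give the enzymes PKM1 and PKM2. Both exons are 167 bases long and lie on the minus strand of chromosome 15, at chr15:72203022-72203188 for PKM1 and chr15:72202454-72202620 for PKM2 (GRCh38, GENCODE release 29). Capitals mark the 62 positions at which the exons differ, and 62.9% of positions are identical.
PKM1 exon: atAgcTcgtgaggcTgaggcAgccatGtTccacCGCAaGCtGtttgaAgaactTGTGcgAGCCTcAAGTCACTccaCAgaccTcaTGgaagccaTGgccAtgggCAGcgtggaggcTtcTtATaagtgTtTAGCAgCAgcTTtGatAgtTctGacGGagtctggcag
PKM2 exon: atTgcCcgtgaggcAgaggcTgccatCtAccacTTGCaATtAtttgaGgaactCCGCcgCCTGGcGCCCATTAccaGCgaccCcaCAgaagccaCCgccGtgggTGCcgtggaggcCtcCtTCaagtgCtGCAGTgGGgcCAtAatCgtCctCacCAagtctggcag

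The next sequences are exon ends that are followed by intron in transcripts annotated as retaining that intron, read 5′ to 3′ in the direction of the gene, from the same annotation. Lower case is exon and capitals are the first 30 intron bases. The first is at the start of intron 11 of PFKL (chr21:44319386-44319445, plus strand), an intron of 668 bases kept in the transcripts PFKL-205 and PFKL-207. The second is at the start of PFKL intron 12 (chr21:44320118-44320177), an intron of 1581 bases kept in PFKL-207. The third is at the start of PKM intron 4 (chr15:72210317-72210376, minus strand), an intron of 487 bases that PKM-210 enters.
PFKL intron 11: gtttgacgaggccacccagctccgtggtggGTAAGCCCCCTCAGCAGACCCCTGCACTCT
PFKL intron 12: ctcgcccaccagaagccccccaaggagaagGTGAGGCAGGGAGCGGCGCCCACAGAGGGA
PKM intron 4: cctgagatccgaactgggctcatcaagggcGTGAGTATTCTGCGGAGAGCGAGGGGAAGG

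Together the 10 mRNAs took 1.36% ± 0.0924 (SD, n = 5) of the reads on named genes in control exosomes and 0.248% ± 0.0322 (SD, n = 5) in control granules. In HD-induced cells they took 1.14% ± 0.359 (SD, n = 4) of exosome reads and 0.309% ± 0.239 (SD, n = 5) of granule reads. Without HD granule 3 the granule value was 0.203% ± 0.0293 (SD, n = 4). HD granule 3 alone stood at 0.734%. These are shares of the reads on named genes in each library, so they measure neither the number of vesicles or granules nor the RNA in each. Less RNA of the 10 genes and more RNA of other genes cannot be told apart. Levels below are CPM, a gene's reads per 1000000 reads on named genes, in the order of replicates 1 to 5, and HD exosome 4 is left out of each list.

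GPI, which interconverts glucose 6-phosphate and fructose 6-phosphate, lies on chromosome 19 (34359718 to 34402413, RefSeq, GRCh38.p14). Its levels were 624, 459, 451, 529 and 454 CPM in the exosomes of control cells and 91.7, 68.7, 73.7, 56.8 and 47.4 CPM in their granules, and the groups did not overlap. In HD-induced cells they were 542, 206, 496 and 278 CPM in exosomes and 85.8, 51.5, 328, 47.2 and 41.1 CPM in granules. HD granule 3, at 328 CPM, lay within the range of the HD exosomes, and the other granule libraries lay below all of them. PFKL, the liver-type subunit of phosphofructokinase, which catalyses the committed step, lies on chromosome 21 (44300053 to 44327373). It was at 141, 86.4, 93.9, 114 and 76.7 CPM in the exosomes of control cells and 40.1, 37.6, 20.3, 19.7 and 14.2 CPM in their granules. The HD exosomes held 110.5, 26.3, 73.8 and 22.6 CPM and the HD granules 33.9, 15.2, 113, 10.7 and 9.82 CPM. The HD groups of PFKL overlapped even with HD granule 3 set aside, since HD exosomes 2 and 5 lay below HD granule 1.

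ALDOA, the aldolase that splits fructose 1,6-bisphosphate, lies on chromosome 16 (30064279 to 30070420). Its levels were 1594, 1124, 1116, 1379 and 1012 CPM in the exosomes of control cells and 182, 203, 143, 151 and 109.5 CPM in their granules. HD exosomes held 1295, 443, 1193 and 457 CPM and HD granules 174, 129.6, 733, 122 and 107 CPM, where the 733 CPM belonged to HD granule 3 and exceeded HD exosomes 2 and 5. TPI1, triosephosphate isomerase on chromosome 12 (6867420 to 6870948), was at 1118, 877, 958, 1033 and 882 CPM in the exosomes of control cells and 181, 208, 152, 171 and 122 CPM in their granules. The HD exosomes held 981, 534, 1078 and 630.2 CPM and the HD granules 159, 128, 453, 90.1 and 103 CPM. All HD granule libraries, the third included, lay below all 4 HD exosome libraries for TPI1.

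GAPDH, which oxidises glyceraldehyde 3-phosphate, lies on chromosome 12 (6534517 to 6538371). It was at 5332, 4634, 4519, 4702 and 4318 CPM in the exosomes of control cells and 719, 1103, 687, 1038 and 617 CPM in their granules. HD exosomes held 5087, 2446, 5472 and 3019 CPM and HD granules 733, 682, 2114, 548 and 519 CPM, again with no overlap. PGK1, phosphoglycerate kinase on chromosome X (78104248 to 78129295), was at 207, 243, 214, 203 and 246 CPM in the exosomes of control cells and 88.7, 87.5, 96.8, 105.3 and 84.1 CPM in their granules. The HD exosomes held 208, 231, 206 and 208 CPM and the HD granules 83.6, 79.99, 153, 66.8 and 63.2 CPM, and every granule library was lower.

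PGAM1, phosphoglycerate mutase on chromosome 10 (97426191 to 97433444), was at 776, 722, 786, 849 and 733 CPM in the exosomes of control cells and 178, 149, 152, 182 and 151 CPM in their granules. In HD-induced cells it was at 758, 457, 804 and 543 CPM in exosomes and 154, 155, 318, 129 and 125 CPM in granules, with no overlap. ENO1, the enolase that makes phosphoenolpyruvate, lies on chromosome 1 (8861000 to 8878686). Its levels were 3075, 3016, 3124, 3164 and 3002 CPM in the exosomes of control cells and 619, 558, 584, 589.8 and 524 CPM in their granules, a narrow spread within each group. The HD exosomes held 3149, 1798, 3060.2 and 2342 CPM and the HD granules 561, 527, 1679.6, 503 and 449 CPM.

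PKM, pyruvate kinase on chromosome 15 (72199029 to 72231591), was at 1369.6, 1092, 1123, 1348 and 1046 CPM in the exosomes of control cells and 229, 133, 150.2, 129 and 119 CPM in their granules. HD exosomes held 1289.8, 428, 1303 and 583 CPM and HD granules 165, 135, 959, 113 and 101.2 CPM. The 959 CPM of HD granule 3 was above HD exosomes 2 and 5. LDHA, lactate dehydrogenase A on chromosome 11 (18394563 to 18408425), was at 761, 913, 811, 855 and 944 CPM in the exosomes of control cells and 232, 232, 239.6, 291 and 222 CPM in their granules. The HD exosomes held 814, 753, 867 and 1300.4 CPM and the HD granules 209, 276, 494, 226 and 199 CPM, and every granule library was lower than every exosome library.

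**Figure D1:**
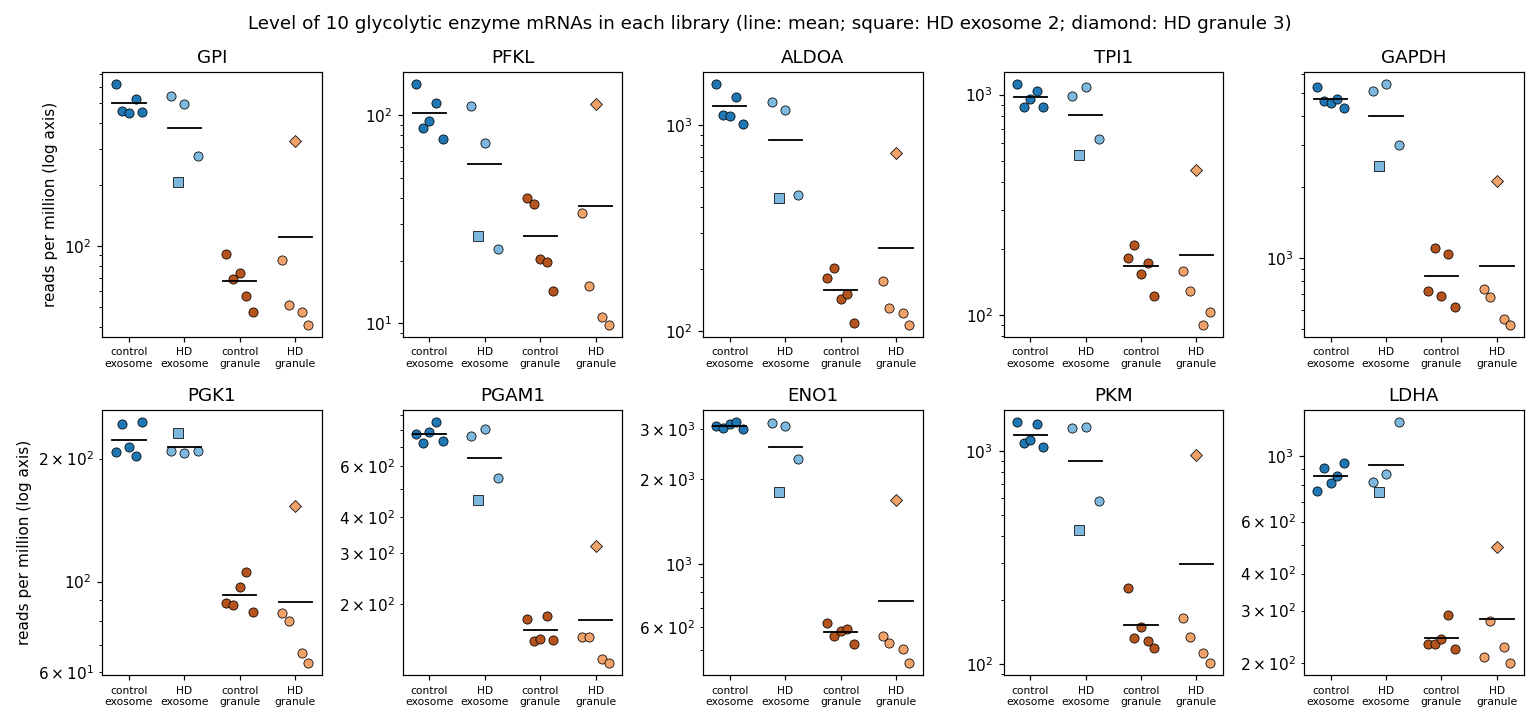
Level of each mRNA in CPM (log axis, 1 panel per gene) in the 4 groups, with 1 point per library and a line at the group mean; HD exosome 4 is not drawn. Control granules lie below control exosomes in all 10 panels, and the diamond, HD granule 3, lies above the other 4 HD granules in each panel.

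Between genes, levels can be compared only per length, as TPM, a level scaled by transcript length and library size. In control exosomes the mean TPM fell from GAPDH at 1137 ± 112 and ENO1 at 607 ± 57.7 to GPI at 72.3 ± 11.4, PGK1 at 43.8 ± 5.42 and PFKL at 9.85 ± 2.04 (SD, n = 5 each). The neighbours ALDOA (282 ± 41.8 TPM) and TPI1 (280.3 ± 31.8 TPM) did not differ beyond their spread. The ranges of PKM (152 ± 17.8 TPM) and PGAM1 (131 ± 11.9 TPM) overlapped across libraries, but PKM was above PGAM1 in each of the 5. In control granules GAPDH (162 ± 34.0 TPM) and ENO1 (102 ± 24.1 TPM) again led and PFKL (1.87 ± 0.721 TPM) was last. ALDOA stood at rank 3 in exosomes and rank 5 in granules, where its 32.1 ± 5.20 TPM lay beside PGAM1 at 28.0 ± 7.29 TPM and PKM at 27.4 ± 7.24 TPM. TPM is also divided among the unnamed entries of a library, so it falls where these take more reads.

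In control cells, the comparison that chose the genes, the log2 fold change of granules over exosomes was -3.04 (SE 0.17) for PKM, -3.03 (SE 0.19) for ALDOA and -2.95 (SE 0.17) for GPI, with SE the standard error. It was -2.59 (SE 0.15) for TPI1, -2.53 (SE 0.21) for GAPDH, -2.46 (SE 0.11) for ENO1 and -2.29 (SE 0.11) for PGAM1. The other values were PFKL at -2.02 (SE 0.28), LDHA at -1.86 (SE 0.13) and PGK1 at -1.31 (SE 0.11). In this comparison 32.5% of the 14777 genes tested were called lower in granules. The genes were chosen for being lower there. With a correction for GC content in each library PFKL stood at -1.24 and PGK1 at -1.68, so which of the 10 lay nearest to 0 differed with that setting. Without the correction the log2 fold change of PGK1 was higher than that of 14.9% of 13093 protein-coding genes, and PKM's higher than that of 0.764%.

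The same comparison in HD-induced cells used 10 libraries outside the comparison that chose the genes. The genes were still chosen with earlier results of these data known. All 10 mRNAs had a log2 fold change below 0, and 3 of 10 were called at an adjusted p under 0.05 (edgeR's quasi-likelihood test over 14431 genes). Of all genes tested, 5.77% were called lower in granules. The called mRNAs were PGAM1 at a log2 fold change of -1.62 (SE 0.35, adjusted p = 0.00873), TPI1 at -1.84 (SE 0.52, adjusted p = 0.0269) and PGK1 at -1.08 (SE 0.32, adjusted p = 0.0333). GPI was at -1.62 (SE 0.54, adjusted p = 0.0533), LDHA at -1.41 (SE 0.48, adjusted p = 0.0578) and GAPDH at -1.75 (SE 0.65, adjusted p = 0.0744). ALDOA was at -1.52 (SE 0.57, adjusted p = 0.0773) and ENO1 at -1.46 (SE 0.57, adjusted p = 0.0886). PKM at -1.40 (SE 0.62, adjusted p = 0.128) and PFKL at -0.62 (SE 0.62, adjusted p = 0.501) were farthest from the threshold. The median over the 10 was -1.49, against 0.17 over all genes tested.

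The result rested on which libraries were used. HD granule 3 was picked out by the contrast between exosomes and granules itself, so the calls without it are not an independent check. Without HD granule 3, all 10 were called lower in granules, with log2 fold changes from -1.30 for PGK1 to -2.46 for GPI, and 17.4% of 13780 genes were called lower. PKM was then at -2.44 (SE 0.43, adjusted p = 0.00044), ALDOA at -2.31 (SE 0.43, adjusted p = 0.00065) and PFKL at -1.54 (SE 0.47, adjusted p = 0.0193). Without HD exosomes 2 and 4 and HD granule 3, all 10 were again called, from -1.25 for PGK1 to -2.80 for PKM, and 16.4% of 16455 genes were called lower. Without any 1 of HD exosomes 1, 2 and 3 or HD granules 1, 2, 4 and 5, 1 of 10 was called, PGAM1 each time, and 2.87% to 3.64% of all genes were called lower. Without HD exosome 5 the calls were TPI1 and PGAM1, where 4.9% of 15785 genes were lower. Without HD exosome 4 there were 8, all but PKM and PFKL, where 7.85% of 16171 genes were lower.

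**Figure D2:**
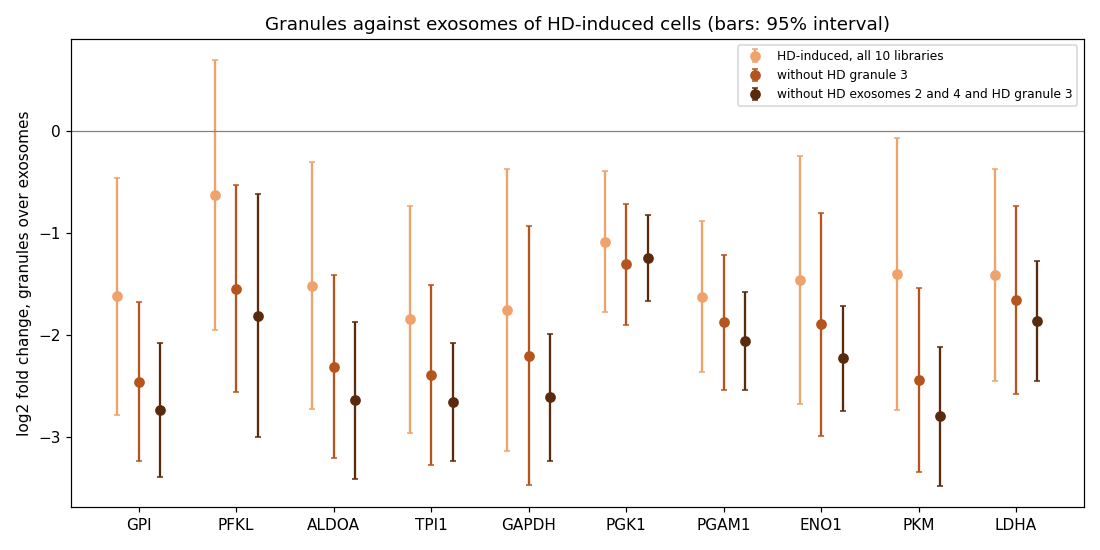
Log2 fold change of granules over exosomes in HD-induced cells for each mRNA (vertical axis, below 0 is lower in granules), with 95% intervals, for all 10 libraries and for 2 reduced sets. With all libraries the interval of PFKL spans 0, and without HD granule 3 all 10 intervals lie below 0.

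HD-induced and control cells were then compared within each kind of RNA. These comparisons share the control libraries with the one that chose the genes. In exosomes 0 of 10 mRNAs were called and 0 of 10 reached an unadjusted p under 0.05. Over all 12936 genes 0.0% were called by edgeR, 980 genes reached an unadjusted p under 0.05, and DESeq2 and voom also called 0. The log2 fold changes of HD-induced over control ran from -0.75 (SE 0.38) for PFKL to 0.09 (SE 0.31) for LDHA. The 95% interval of GAPDH was -1.38 to 0.61 and that of PGK1 -0.46 to 0.48. PFKL alone was called without HD exosome 1, at a log2 fold change of -1.31 (adjusted p = 0.0498). Of 13088 genes 497 were then called, 423 of them lower (3.23%). HD exosomes 2, 3, 4 and 5 held 51, 98, 0 and 68 PFKL reads, against 818 in HD exosome 1. PFKL was chosen for a higher level in control exosomes than in control granules, which favours a lower HD value. This call is therefore not an independent test. With the 2 HD exosomes 2 and 4 left out PFKL was at -0.55 (SE 0.44).

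In granules 0 of 10 mRNAs were called between HD-induced and control cells, and 0 of 10 reached an unadjusted p under 0.05. Over all 16750 genes 0.0% were called by edgeR, 215 reached an unadjusted p under 0.05, DESeq2 called 4 genes and voom 5. None of these was among the 10, of which DESeq2 gave a p for 8, all but PKM and ALDOA. With all libraries each of the 10 had a log2 fold change above 0, from 0.05 (SE 0.19) for PGK1 to 0.97 (SE 0.55) for PKM. Without HD granule 3 the median over the 10 moved from 0.37 to -0.05, and 7 of 10 lay below 0. PKM was then at -0.02 (SE 0.17) with a 95% interval of -0.40 to 0.36.

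The difference of the granule-to-exosome effect between HD-induced and control cells is given without a test, since 1 of the 2 effects chose the genes. This difference was above 0 for all 10 mRNAs with all libraries, from 0.10 (SE 0.31) for PGK1 to 1.53 (SE 0.68) for PKM on the log2 scale, with a median of 0.79. Without HD exosomes 2 and 4 and HD granule 3 the median was 0.17 and PKM was at 0.20 (SE 0.31).

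Within each gene, the share of reads on protein-coding transcripts was also compared, with the rest on retained-intron, nonsense-mediated decay and other non-coding transcripts. In control cells the share is again only described. PFKL was at 93.9, 98.4, 92.1, 94.8 and 90.95% in exosomes and 57.8, 45.1, 56.7, 45.2 and 61.8% in granules. PKM was at 99.2, 95.9, 93.5, 97.1 and 95.9% in exosomes and 81.2, 64.96, 52.3, 52.7 and 53.6% in granules, with control granule 1 the highest of its group. For 7 of 10 mRNAs every control granule library lay below every control exosome library, where 30.1% of 8274 genes did so. None of the 10 had every granule library above, where 2.53% of genes did. Those 7 were PFKL, PKM, GPI, ALDOA, ENO1, PGAM1 and GAPDH. GAPDH had the smallest gap among them, from 99.8% ± 0.111 to 97.6% ± 0.596 (SD, n = 5). TPI1, PGK1 and LDHA overlapped between groups.

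In HD-induced cells 5 of 10 mRNAs, PFKL, PKM, GAPDH, PGAM1 and ENO1, had every granule library below every exosome library in this share, where 22.4% of 4426 genes did. None of the 10 had every granule library above, where 1.04% of genes did. PFKL was at 97.3, 88.97, 88.99 and 100% in exosomes and 64.9, 48.4, 78.7, 50.1 and 58.2% in granules. PKM was at 97.3, 99.2, 99.4 and 98.9% in exosomes and 70.2, 58.96, 95.6, 44.3 and 48.1% in granules, where HD granule 3 was the highest. The exact 2-sided permutation test called 0 of 10 mRNAs and 0.0% of the 4426 genes after adjustment. With 4 against 5 libraries its smallest possible p is 0.0159, which became 0.0679 after adjustment, so 0 calls do not show equal shares. An unadjusted p under 0.05 was reached by 7 of 10 mRNAs and 1643 of the 4426 genes, and no other tool was run. Among these mRNAs LDHA had the higher share in granules, and the others had the lower share there. For 3 of 10 the granule mean was the higher one, with overlapping groups: LDHA at 77.8% ± 7.82 in exosomes (SD, n = 4) and 89.1% ± 4.66 in granules (SD, n = 5), TPI1 at 80.7% ± 7.11 and 88.6% ± 2.25, and PGK1 at 86.6% ± 6.94 and 90.7% ± 1.56. Without HD granule 3, 6 of 10 lay wholly lower, ALDOA added, where 33.9% of genes did, and LDHA lay wholly higher, where 1.65% did.

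**Figure D3:**
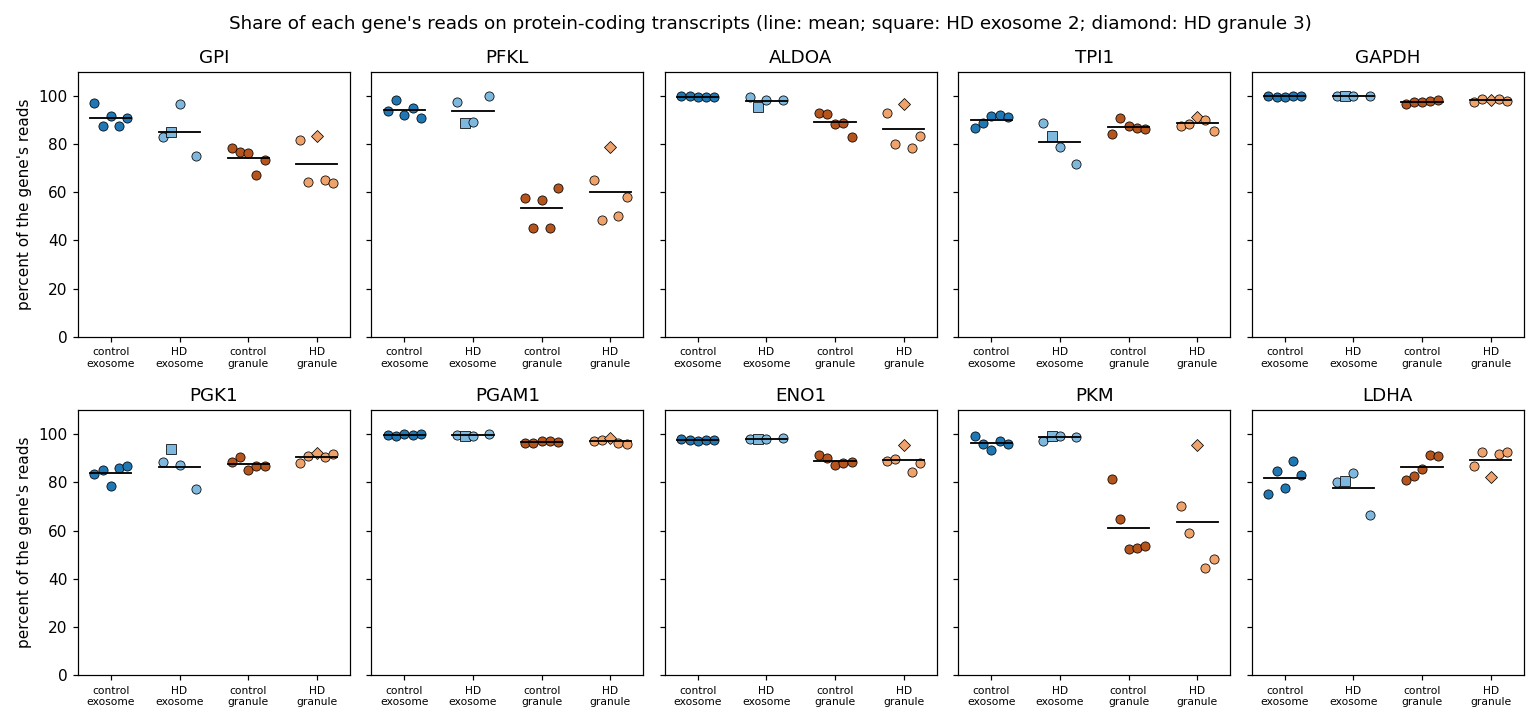
Percent of each gene's reads on protein-coding transcripts (vertical axis) by library in the 4 groups, with a line at the group mean; HD exosome 4 is not drawn. PFKL and PKM show the widest gap between exosomes and granules, and HD granule 3 (diamond) lies highest among the HD granules in both.

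The share of the leading transcript, the one with the highest mean share over the libraries of the condition, gave a like count, but it is not independent of the share above. For PFKL and PGAM1 the 2 shares are the same values. In control granules the leading and protein-coding shares were 88.4% and 89.1% for ENO1 and 96.4% and 97.6% for GAPDH. In control cells 6 of 10 leading transcripts lay wholly lower in granules, where 19.9% of 8274 genes did, and 0 wholly higher, where 6.71% did. PKM-202, which holds the PKM2 exon, went from 93.1% ± 1.41 to 41.2% ± 16.0 (SD, n = 5 each), and TPI1-202 from 87.0% ± 1.89 to 71.8% ± 6.69. The others were PFKL-201, ENO1-201, GAPDH-201 and PGAM1-201. In HD-induced cells 4 of 10 lay wholly lower (PFKL-201, PGK1-206, PGAM1-201 and ENO1-201), where 12.8% of 4426 genes did, and 0 wholly higher, where 2.82% did. The exact permutation test called 0 of 10 and 0.0% of genes after adjustment, with 6 of 10 and 1199 genes at an unadjusted p under 0.05. Its smallest possible p became 0.102 after adjustment. Without HD granule 3, 6 of 10 lay wholly lower, where 22% of genes did, with PKM-202 and ALDOA-219 added. PKM-202 was then at 88.4% ± 9.84 in exosomes and 30.1% ± 13.5 in granules (SD, n = 4 each). LDHA-203 lay wholly higher, from 16.0% ± 17.6 to 61.0% ± 7.62 (SD, n = 4 each), where 5.47% of genes did. With all HD granules TPI1-202 stood at 76.8% ± 9.43 in HD exosomes (SD, n = 4) and 76.9% ± 6.10 in HD granules (SD, n = 5).

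Single transcripts are described next, as shares of their gene's reads, which are not levels. PFKL-201 held all of the protein-coding share of PFKL given above. PFKL-207, a retained-intron transcript that keeps introns 11, 12, 18 and 19 whole, held 0.344, 0.964, 1.34, 1.84 and 3.66% in control exosomes and 20.7, 26.4, 36.9, 33.2 and 15.2% in control granules. Every granule library lay above every exosome library for this transcript, whose first kept introns start at the exon ends printed above. PKM-210, which runs into intron 4 of PKM, held 0.0567% ± 0.0525 of PKM reads in control exosomes and 10.2% ± 5.32 in control granules (SD, n = 5 each). PKM-222, annotated for nonsense-mediated decay, held 2.90% ± 1.98 and 17.1% ± 5.95. Expected counts divide reads shared between transcripts of a gene by a model, so single-transcript shares carry an error that the spread between libraries does not show.

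PKM reads were also sorted by which of the 2 exons printed above their transcript holds, a grouping chosen after its values were seen and therefore given without a test. Of 25 PKM transcripts, 6 hold the PKM1 exon, 4 the PKM2 exon, 1 both, 12 neither, and 2 were not in the annotation used. In control exosomes PKM2-exon transcripts held 97.5, 93.9, 91.2, 94.1 and 94.8% of PKM reads and PKM1-exon transcripts 1.36, 1.99, 2.60, 2.22 and 1.14%. In control granules the PKM2 exon stood at 70.6, 40.3, 34.3, 36.8 and 35.5% and the PKM1 exon at 11.6, 21.1, 17.8, 13.02 and 14.6%. The PKM1 shares of the 2 groups did not overlap. PKM as a whole was at 1046 to 1369.6 CPM in control exosomes and 119 to 229 CPM in control granules. A higher share therefore does not show a higher level of PKM1-exon RNA. The PKM1 class includes PKM-223, a retained-intron transcript. The PKM2 class includes PKM-208, also retained-intron, and PKM-218, annotated for nonsense-mediated decay. PKM-201, the leading PKM1 transcript, also runs into intron 1, so part of its reads need not cover the alternative exon. In HD granules the PKM1 exon stood at 19.4, 17.1, 1.58, 21.8 and 22.4%, with HD granule 3 at the level of the exosomes.

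**Figure D4:**
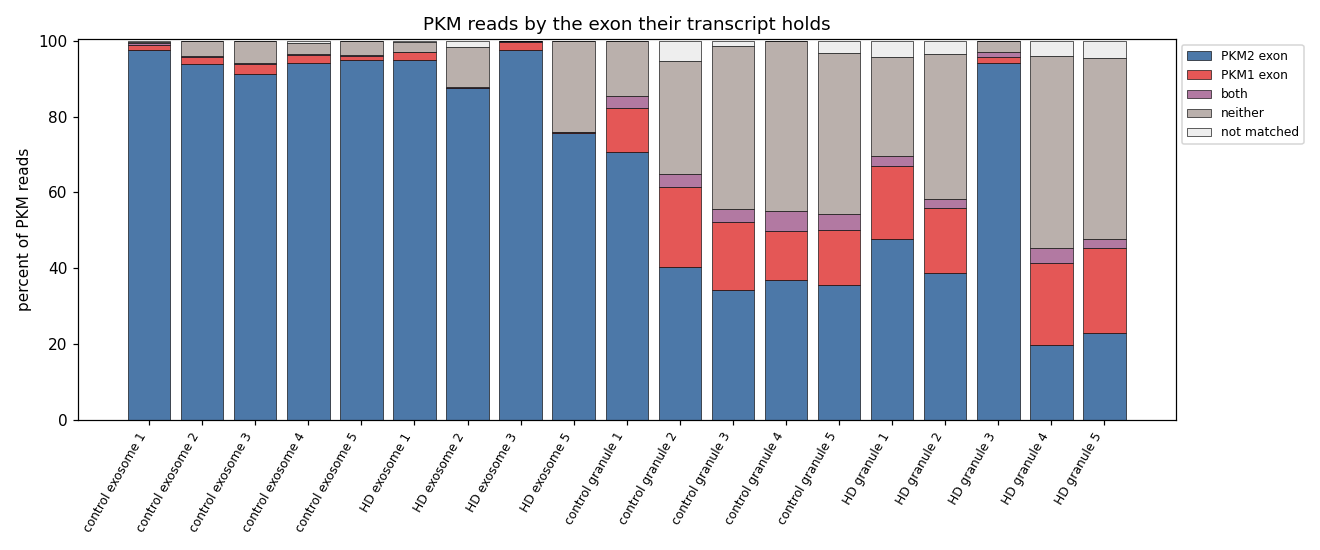
Percent of PKM reads (vertical axis) in each of 19 libraries, stacked by whether the transcript holds the PKM2 exon, the PKM1 exon, both, neither, or was not matched. Exosome bars are mostly PKM2, granule bars are split among the classes, and HD granule 3 looks like the exosome bars.

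The leading transcript of LDHA differed between exosomes and granules of control cells. LDHA-205 held 50.6, 74.1, 39.05, 61.9 and 56.2% of LDHA reads in control exosomes and 10.5, 41.8, 2.14, 13.6 and 0% in control granules, with overlap from control granule 2. LDHA-203, also protein-coding, held 4.53, 1.17, 1.79, 1.78 and 6.54% in control exosomes and 44.99, 29.7, 55.03, 54.6 and 62.9% in control granules, with no overlap. In HD-induced cells LDHA-203 held 2.40, 26.1, 0 and 35.7% in exosomes and 50.7, 67.7, 7.45, 65.8 and 59.8% in granules. HD exosomes 2 and 5 were above the other HD exosomes, and HD granule 3 was far below the other HD granules. By contrast GAPDH-201, PGAM1-201 and ENO1-201 each held at least 82.97% of their gene's reads in all 19 libraries.

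The other genes of glucose metabolism did not all follow the 10 enzymes. Of 20 further glycolytic enzymes and isoenzymes, 12 were tested in HD-induced cells, where BPGM fell in granules (log2 fold change -1.24, SE 0.31, adjusted p = 0.0171) and ADPGK rose (0.73, SE 0.24, adjusted p = 0.0493). Of all genes tested, 5.77% were called lower and 11.9% higher. Without the 3 libraries that stood apart, 6 of 12 fell and 1 rose, where 16.4% of all genes were called lower and 18.6% higher. PFKP was then at -2.03, HK1 at -1.88, ALDOC at -2.30, PFKM at -1.25, ENO2 at -1.24 and BPGM at -1.24, and ADPGK at 0.67. LDHB, the other main lactate dehydrogenase subunit, was at 0.29 (SE 0.53) with all libraries and 0.33 (SE 0.26) without these 3, and HK2 at 0.35 (SE 0.33) and 0.00181 (SE 0.25). LDHC and ENO3 were not called in either set. HK1 and HK2 are hexokinases, PFKP and PFKM subunits of phosphofructokinase, ALDOC an aldolase, ENO2 an enolase, BPGM makes 2,3-bisphosphoglycerate, and ADPGK is an ADP-dependent glucokinase. The median over the 12 was -0.19 with all libraries.

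Of 4 transporters, 2 rose in granules of HD-induced cells: SLC16A1, a lactate and pyruvate carrier, at a log2 fold change of 1.42 (SE 0.36, adjusted p = 0.0172), and SLC2A3, a glucose carrier, at 1.16 (SE 0.29, adjusted p = 0.0158). Of all 14431 genes tested, 11.9% were called higher there. SLC2A1 (0.78, SE 0.36) and SLC16A3 (-0.36, SE 0.66) were not called. In the pentose phosphate pathway, which branches from glucose 6-phosphate, 2 of 7 fell, where 5.77% of all genes did, and none of the 7 rose. The 2 were TALDO1 at -1.36 (SE 0.31, adjusted p = 0.0106) and PGD at -1.16 (SE 0.35, adjusted p = 0.0355), while TKT was at -0.89 (SE 0.51) and RPE at 0.33 (SE 0.38). Without the 3 libraries 5 of the 7 fell, where 16.4% of all genes did. TKT was then called at -1.86 (SE 0.37, adjusted p = 0.00524). The median log2 fold change with all libraries was 0.97 over the 4 transporters and -0.66 over the 7 pentose phosphate genes, against 0.17 over all genes tested.

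Of 18 enzymes of the tricarboxylic acid cycle 3 fell and 0 rose in HD-induced cells by edgeR, and 11 had an unadjusted p under 0.05. Of all genes tested, 5.77% were called lower and 11.9% higher. Without the 3 libraries 10 fell and 2 rose, where 16.4% of all genes were called lower and 18.6% higher. Among the most abundant, with all libraries, CS was at -0.99 (SE 0.36), MDH1 at 0.47 (SE 0.40), SDHD at 1.10 (SE 0.44) and SDHB at -0.10 (SE 0.35), none of them called. Without the 3 libraries CS was called at -1.57 (SE 0.20, adjusted p = 0.000853) and SDHD at 1.36 (SE 0.25, adjusted p = 0.00364). MDH1 and SDHB were again not called. Of 11 genes of the pyruvate dehydrogenase complex with its kinases and phosphatases, 1 fell with all libraries, PDHA1 at -1.20 (SE 0.35, adjusted p = 0.0297), and PDK3, DLAT and DLD were not called. Without the 3 libraries 4 of the 11 fell and 0 rose. None of 7 regulators was called, MYC, BSG, HIF1A and PFKFB3 among them, and 0 of these 7 had an unadjusted p under 0.05. None of 3 gluconeogenesis genes (PCK2, G6PC3 and PC) was called, with 0 at an unadjusted p under 0.05. Without the 3 libraries PC, pyruvate carboxylase, fell at -1.35 (SE 0.41, adjusted p = 0.0289).

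Across the 19 libraries with at least 10000 reads on named genes, the log2 level of each enzyme mRNA was correlated with the mean of the other 9. Pearson's r ran from 0.86 for PFKL and 0.93 for LDHA to 0.99 for TPI1 and GPI. These points share the contrast between exosomes and granules, and the values are a description. The protein-coding genes outside glycolysis with the profile most like the mean of the 10 were MRPL37 (r = 0.995), PRDX2 (r = 0.995), FKBP4 (r = 0.99), EEF1G (r = 0.99) and FTSJ1 (r = 0.99), out of 11076 genes with a mean of at least 5 CPM. EEF1G, a subunit of a translation elongation factor, stood at a mean of 2730.2 CPM in the exosomes of control cells and 488 CPM in their granules.

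Other measures moved with the contrast. The GC content of transcripts was 56.2% in the median of the 10 genes and 49.6% in the median of the 13093 protein-coding genes tested in control cells. Among those genes the log2 fold change of granules over exosomes had a Spearman's rho of -0.51 with GC content in control cells and -0.38 in HD-induced cells, across genes, which are not independent. PGK1 (43.3%) and LDHA (45.4%) lay below the median in GC content and PFKL (63.6%) and ALDOA (60.7%) above it. After a correction for GC content in each library, 9 of 10 mRNAs were called lower in HD granules, where 19.9% of 13994 genes were, with PFKL at -0.63 (adjusted p = 0.0879). Reads on the genes named as pseudogenes of these enzymes amounted to 0.132% of the enzymes' own reads in control exosomes and 0.398% in control granules.

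Markers of other cells were detected in the exosome libraries. Summed over 11 genes of red blood cells, serum and liver, levels were 75.3 to 295 CPM in control exosomes, 90.8 to 2250.4 CPM in HD exosomes, 11.2 to 43.2 CPM in control granules and 7.33 to 88.3 CPM in HD granules. Globin genes reached the highest levels in this list, with HBA2 at up to 821 CPM and HBG1 at up to 635 CPM in HD exosomes. The serum and liver genes ALB, APOA1, APOA2, TTR and SERPINA1 stayed at or under 3.77 CPM in every group. For 8 keratinocyte genes the ranges were 6.44 to 82.0, 16.2 to 810.3, 1.37 to 2.37 and 1.67 to 6.44 CPM in the same order of groups, with 2 of the 8 at 0 in each group. KRT9 and LORICRIN were at 0 in control exosomes, KRT14 and FLG in HD exosomes, and LORICRIN and FLG in both granule groups. In HD exosomes KRT5 reached 341 CPM and KRT1 319 CPM. For 6 fibroblast and endothelial genes the ranges were 18.4 to 43.2, 28.7 to 118, 2.86 to 14.04 and 4.63 to 47.5 CPM. The platelet genes PPBP and GP9 were at 0 in all 19 libraries. Platelet genes in sum stayed at or under 10.5 CPM and leukocyte genes at or under 26.3 CPM. A list of 6 genes linked to HEK293 cells stood at 716 to 779.6 CPM in control exosomes and 311 to 466 CPM in control granules, and at 485 to 817 CPM in HD exosomes and 271 to 754 CPM in HD granules. IGF2BP1, at up to 609 CPM, and LIN28B, at up to 298 CPM, reached the highest levels in this list. PAX2 stayed at or under 2.88 CPM and NEFM at or under 0.897 CPM, and NEFM was at 0 in HD granules. The part of all these markers in the results was not tested.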

How the data were processed

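Stranded total RNA was sequenced as paired reads of 100 bases, per the labels' protocols. Trimmomatic, cutadapt, FastQC and Salmon and build GRCh38.p14 are named in the submitters' processing notes; their versions and settings were not given in these sources. The authors deposited, per transcript, an expected count (estimated, not whole) and a TPM value. Expected counts were summed per gene, rounded, filtered with filterByExpr, scaled by TMM and tested in edgeR (4.0.16, under R 4.3.3) by its quasi-likelihood test, robust setting, with Benjamini-Hochberg adjustment over all genes, called under 0.05. Entries without a gene name stayed out of library sizes and tests, and took 24.9% to 86.6% of reads per library. SE is the log2 fold change over the square root of F. Shares needed 50 expected counts in each library. Alternatives used DESeq2 1.42.0, limma 3.58.1, TPM with a pseudocount of 1 and a minimum mean of 1, and a correction over 20 GC bins. The tests were checked on simulated data.

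The 10 genes and all lists were chosen with earlier results of these data known. Text names the 10 genes, tested isoenzymes and 4 transporters, up to 4 genes per pathway list by mean CPM, transcripts with at least 10% of a gene's reads in any group, and the 5 most similar genes; 1 gene that this rule names is not reported here. Control transcript shares were planned as a test and are given as values, because that contrast chose the genes. P-values measure the spread between libraries of 1 cell line. Replicate numbers were not treated as pairs.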

Additional observations from a re-analysis of the deposited data

Results flagged for a closer look

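In a group of 4 or 5 libraries, a library was picked out when its gap to the nearest other library, over the group's range, passed Dixon's 95% value. Of 80 groups tested on levels and on protein-coding shares, chance picks out about 5%. HD granule 3 was the high library for all 10 mRNAs in the HD granules: GPI at 328 CPM (others 41.1 to 85.8 CPM), PFKL at 113 CPM (others 9.82 to 33.9 CPM), ALDOA at 733 CPM (others 107 to 174 CPM), TPI1 at 453 CPM (others 90.1 to 159 CPM), GAPDH at 2114 CPM (others 519 to 733 CPM), PGK1 at 153 CPM (others 63.2 to 83.6 CPM), PGAM1 at 318 CPM (others 125 to 155 CPM), ENO1 at 1679.6 CPM (others 449 to 561 CPM), PKM at 959 CPM (others 101.2 to 165 CPM), LDHA at 494 CPM (others 199 to 276 CPM). The other cases were single genes. PGK1 in HD exosome 2 was at 231 CPM, with the other libraries of its group at 206 to 208 CPM. PKM in control granule 1 was at 229 CPM, with the other libraries of its group at 119 to 150.2 CPM. LDHA in control granule 4 was at 291 CPM, with the other libraries of its group at 222 to 239.6 CPM.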

How the results depend on the processing

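The number of the 10 mRNAs called lower in HD granules was 3 with all libraries and the main test, 6 with DESeq2, 10 with voom and quality weights, 6 with no count filter, 9 with the GC correction, 0 with limma on log2(TPM + 1), and 10 without HD exosomes 2 and 4 and HD granule 3. Of all genes, 5.77% were called lower with the main test, 3.49% with DESeq2, 21.7% with voom and 5.70% with no count filter. This share was 19.9% with the GC correction, 0.0347% with limma and 16.4% without the 3 libraries. Leaving out 1 library gave 1 to 10 of the 10 mRNAs and 2.87% to 17.4% of all genes. Under the replicate block 6 of the 10 mRNAs and 9.81% of all genes were called lower. Same-numbered libraries did not all correlate, so the numbers were not used as pairs. In HD-induced against control exosomes the block called 1 mRNA, PFKL, as lower, where the main fit called 0. Under the block 1.94% of all genes were called lower. Leaving out 1 library gave 0 to 1 there, with 0% to 3.23% of all genes called lower. All genes called between granules and exosomes of HD-induced cells numbered 2553, and 6029 with voom, 4244 with no filter, 4006 with the block, 5028 with the GC correction, 70 with limma on TPM, 5758 without the 3 libraries, 5346 without HD granule 3, 1477, 1349 and 1240 without HD granules 1, 4 and 5, and fewer than 1240 without HD granule 2. In exosomes between HD-induced and control cells they numbered 0, and 275 with no filter, 296 with the block and 497 without HD exosome 1. In granules they numbered 0, with 4 by DESeq2 and 5 by voom. The median log2 fold change in control cells was -2.50 and moved to -1.92 with the GC correction. The median difference of the effects moved from 0.79 to 0.17 without HD exosomes 2 and 4 and HD granule 3. For these changes the cause was not tested, beyond the fewer libraries used. Sets without the 3 libraries were added after seeing the data for the transcript shares. Depth limits low levels: 1 read was worth 0.753 CPM in HD exosome 3 and 1403 CPM in HD exosome 4.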
